A study of Mus musculus with 13 samples.

Results

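The genes described here are 42 mouse genes that carry newly made proteins into the endoplasmic reticulum (ER) and move them between the ER and the Golgi. They were taken by name, as a list of components of the Sec61 translocon, the TRAP complex, the COPII and COPI coats, the cargo receptors and the CREB3L transcription factors. All 42 were found among the 48709 genes of the deposited count table, and all 42 passed the filter on low counts that left 16328 genes to test. Bulk RNA-seq was made from the enamel organ, an epithelium of the tooth that lays down enamel, of mandibular incisors at postnatal day 11. The 5 Het libraries came from mice heterozygous for the glycine-to-tryptophan substitution Tgfbr2 G357W, a model of Loeys-Dietz syndrome type II, and the 8 WT libraries from mice labelled wild type. The substitution is present in the whole animal and not in enamel organ alone, so the Het and WT organs came from animals that differ throughout. Gene counts do not show the substitution itself, so they did not check the genotype labels. Each library was taken as 1 mouse, and the p-values measure only the spread between these libraries.

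Proteins with a signal sequence enter the ER through the Sec61 channel. They leave it in vesicles coated with COPII, which cargo receptors help to fill, and COPI-coated vesicles return receptors and escaped resident proteins from the Golgi. Ameloblasts, the enamel-forming cells of this epithelium, are secretory cells that depend on this route to deliver amelogenin, ameloblastin, enamelin and their proteases.

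Gene totals were 20266079 to 26122340 counts in Het libraries and 18852382 to 26508410 in WT libraries. The labelled tissue was checked against its markers. The 7 genes for secreted enamel proteins (Amelx, Ambn, Enam and Amtn, with Odam and the proteases Mmp20 and Klk4) summed to 220193 to 331032 CPM (counts scaled to a common library size) in Het libraries and 200338 to 343029 CPM in WT libraries. Other tissues were present at lower levels. The 8 endothelium and pericyte markers summed to 7242 to 10511 CPM in Het libraries and 6635 to 14382 CPM in WT libraries. Nearly all of that sum was Rgs5, which averaged 13.1 log2 CPM in Het and 13.2 in WT. The next of the list, Pecam1, averaged 4.37 log2 CPM in Het and 4.31 in WT. The 10 fibroblast and mesenchyme markers summed to 1926 to 3869 CPM in Het libraries and 2462 to 5037 CPM in WT libraries. The 10 odontoblast and pulp markers summed to 2610 to 6450 CPM in Het libraries and 3179 to 7976 CPM in WT libraries. Most of it was Col1a1 (mean 11.2 log2 CPM in Het, 11.5 in WT) and Col1a2 (10.6 in Het, 10.7 in WT). The next of the list, Dmp1, averaged 5.69 log2 CPM in Het and 5.85 in WT. The 10 skeletal muscle markers summed to 14.7 to 81.5 CPM in Het libraries and 12.9 to 208 CPM in WT libraries. The 10 markers of maturation-stage ameloblasts, 3 of them also among the 7 enamel genes, summed to 29152 to 54017 CPM in Het libraries and 43320 to 58300 CPM in WT libraries. All 10 had a negative log2 fold change (Het minus WT), 5 of them with an unadjusted p under 0.05 and none past the adjusted threshold. In bulk tissue, fewer cells of a type and less RNA per cell cannot be told apart. None of these marker lists is at 0. With the bone and odontoblast markers as a covariate, 0 of the 42 genes passed the genotype test described next and 33 had a positive log2 fold change. Without Het 1-2 and WT 1-4, which had the most muscle markers, 0 passed and 34 were positive. The part of the other marker lists was not tested.

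None of the 42 genes passed the test of a difference between Het and WT enamel organs. By edgeR's quasi-likelihood test with Benjamini-Hochberg adjustment over all genes, 0 of 42 passed an adjusted p of 0.05, against 14 genes, or 0.0857%, of all genes tested. The adjusted p of the 42 genes ran between 0.709 and 0.992. An unadjusted p under 0.05 was reached by 1 of 42 (Sec13), against 6.9% of all genes. The alternative tools gave 0 adjusted calls among the 42 genes as well. They gave an unadjusted p under 0.05 to 1 of 42 by DESeq2, against 7.53% of all genes, and to 2 of 42 by limma-voom, against 8.72%. With the library prefix, a number in the column names described further on, as a term of the edgeR model, 5 of 42 did (Sec24a, Sec24c, Sec13, Copa and Copg1), against 9.82% of all genes, and again 0 passed the adjusted threshold. The per-library range of no gene lay apart between genotypes, where the background was 0.49%. The log2 fold changes were small, between -0.27 for Kdelr2 and 0.25 for Copa, with standard errors (SE) of 0.082 to 0.22. For 38 of 42 genes the 95% interval stayed within 1.4-fold in either direction, and for 41 within 1.5-fold.

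The signs were mostly positive. Of the 42 genes, 34 had a positive and 8 a negative log2 fold change, against 49.1% positive among all genes tested, and the median was 0.08 against -0.00 for all genes. Together the 42 genes took 0.745% ± 0.026 of a library's gene counts in the 5 Het libraries and 0.707% ± 0.016 in the 8 WT libraries (mean ± SD), with ranges of 0.707 to 0.780% in Het and 0.688 to 0.738% in WT. These shares are of raw counts, without the scaling of library sizes (TMM factors) that CPM uses. The factors were 1.06, 1.05, 1.09, 1.015 and 0.942 in Het libraries and 0.920 to 1.03 in WT libraries. A larger factor lowers the scaled level, so the shares do not give the difference on the CPM scale. The 42 genes share libraries and vary together, so the count of positive signs is a description and was not tested. The COPI list and the COPII list had the highest medians, 0.16 with 8 of 9 positive and 0.12 with 11 of 12 positive. The translocon list had a median of 0.09, the cargo receptors 0.06, the CREB3L pair 0.05 and the TRAP complex 0.01.

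**Figure D1:**
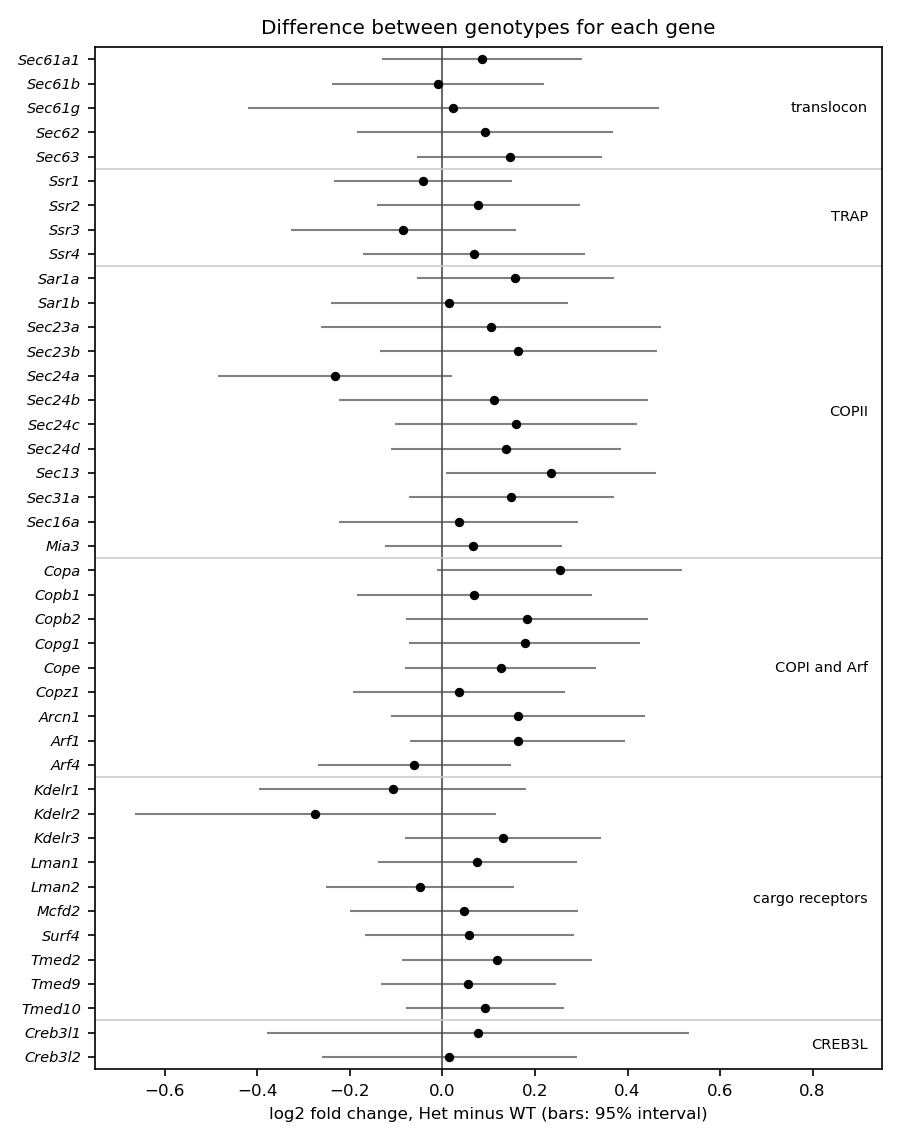
Log2 fold change of each of the 42 genes (x axis, Het minus WT) with its 95% interval as a bar, in the order of their roles down the page. 34 points lie right of 0 and 8 left of it, the interval of 41 genes includes 0, and Sec13 is the exception.

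The translocon is the channel that secretory proteins cross on their way into the ER. Sec63, a membrane partner of the channel that helps post-translational entry, had 81.6, 78.5, 87.8, 86.7 and 97.7 CPM in Het libraries. In WT libraries it had 67.9 CPM at the lowest, 76.5 at the median and 92.6 at the highest. The highest Het library exceeded all WT libraries, and the other 4 lay within the WT range. Its log2 fold change was 0.15 (SE 0.096, adjusted p = 0.791, edgeR). Sec61a1, the subunit that forms the pore, had 166, 167, 141, 138 and 165 CPM in Het libraries and 108, 150 and 160 CPM in WT libraries (lowest, median, highest). 3 Het libraries were above the WT range, and the log2 fold change was 0.09 (SE 0.10, adjusted p = 0.892, edgeR).

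The small subunits of the channel are encoded by Sec61b and Sec61g, with log2 fold changes of -0.01 and 0.02. Sec62, which works with Sec63, had 0.09. Per transcript length, in CPM per kilobase (CPM divided by the length of the longest principal transcript), Sec61b had a mean of 84.7 ± 3.77 in Het and 85.3 ± 13 in WT. Here and in all such levels the error is the SD over 5 Het and 8 WT libraries. Sec62 had 72.0 ± 11.2 in Het and 67.6 ± 11.6 in WT. Sec61a1 followed with 49.0 ± 4.63 in Het and 46.2 ± 5.26 in WT, and Sec63 with 14.3 ± 1.22 in Het and 13 ± 1.41 in WT. Sec61g stood far below the other channel subunits at 2.20 ± 0.546 in Het and 2.16 ± 0.573 in WT. Its value is uncertain, because a pseudogene with 99.1% identity over 424 bases, Gm10177, held counts equal to 31.5% of those given to Sec61g. The size of the gap also depends on length, which was 1862 bases for Sec61g and 564 for Sec61b. In CPM, Sec61g had 4.10 ± 1.02 in Het and 4.02 ± 1.07 in WT, against 47.8 ± 2.12 and 48.1 ± 7.32 for Sec61b.

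The TRAP complex sits beside the channel and assists some signal sequences. Its 4 subunits are encoded by Ssr1, Ssr2, Ssr3 and Ssr4, and their log2 fold changes were -0.04, 0.08, -0.08 and 0.07. Ssr2, the beta subunit, had 173, 159, 148, 199 and 176 CPM in Het libraries and 135, 161 and 186 CPM in WT libraries (lowest, median, highest). 1 Het library was above the WT range and the rest lay inside it (adjusted p = 0.905, edgeR). Ssr2 shares 366 bases at 98.6% identity with Rtraf, whose counts came to 13.5% of those of Ssr2, so reads could have been split between them.

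Ssr3, the gamma subunit, had 259, 248, 225, 284 and 251 CPM in Het libraries and 230, 262 and 372 CPM in WT libraries (lowest, median, highest). The WT maximum came from 1 library that stood apart from the other 7, while 1 Het library was just below the WT minimum (adjusted p = 0.906, edgeR). Per length, Ssr4 was the most abundant of the complex at 162 ± 15.2 in Het and 155 ± 25.4 in WT, ahead of Ssr2 at 144 ± 16.2 in Het and 136 ± 15.9 in WT. Ssr3 had 85.8 ± 7.20 in Het and 91.0 ± 15.1 in WT, and Ssr1 had 30.8 ± 1.47 in Het and 31.7 ± 2.33 in WT. With all exons of a gene as its length, Ssr4 ranked 14 of the 42 in WT libraries in place of 5, and Ssr1 ranked 17 in place of 27, so the order within the complex depends on the length used.

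**Figure D2:**
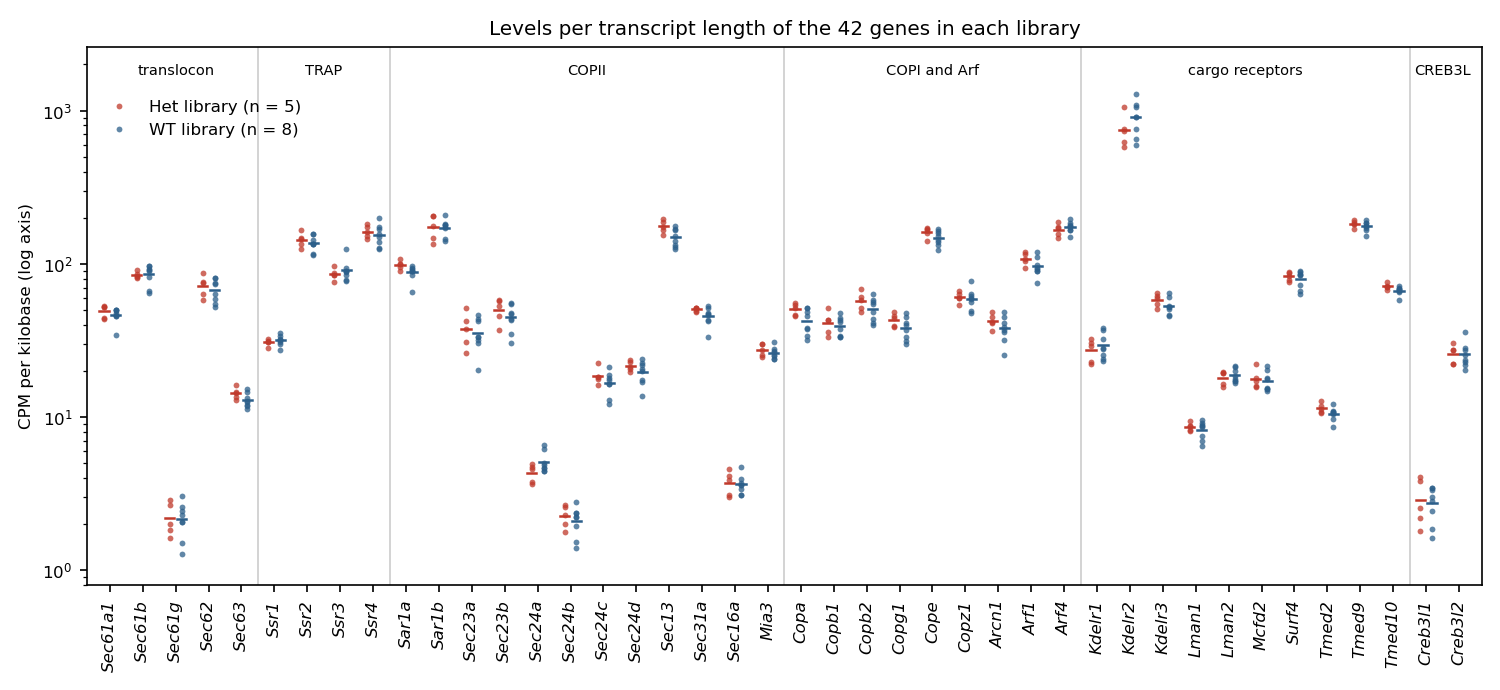
Level of each of the 42 genes in CPM per kilobase (y axis, log scale) in each library, with Het points left of WT points and short lines at the group means. Kdelr2 stands above every other gene in both genotypes, and Sec61g, Sec24b, Creb3l1, Sec16a and Sec24a form the low end.

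The COPII coat forms on the ER when the small GTPase Sar1 recruits the Sec23 and Sec24 inner coat and then the Sec13 and Sec31 outer coat. Sec13, the outer coat gene that was the only one of the 42 with an unadjusted p under 0.05, had 234, 209, 225, 265 and 254 CPM in Het libraries. In WT libraries it had 168 CPM at the lowest, 199 at the median and 240 at the highest. All 5 Het libraries were above the WT median and 2 were above the WT range, so the groups overlapped. The log2 fold change was 0.24 (SE 0.11, 95% interval 0.01 to 0.46, unadjusted p = 0.043, adjusted p = 0.709, edgeR). The unadjusted p was not under 0.05 without Het 1-2, 5-5 or 5-6, or without WT 1-1, 4-1, 4-3 or 4-4. Nor was it with Y-linked genes or the bone and odontoblast markers as a covariate. The other fits with 1 library left out kept it under 0.05, and the log2 fold change stayed between 0.20 and 0.28 in all such fits. Its partner Sec31a had a log2 fold change of 0.15 (SE 0.11), with 205 to 219 CPM in Het libraries and 141 to 226 CPM in WT libraries.

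Sec24a, which encodes a cargo-binding subunit of the inner coat, was the COPII gene with a negative value. It had 23.9, 30.3, 24.8, 31.2 and 32.7 CPM in Het libraries and 29.1, 31.3 and 43.6 CPM in WT libraries (lowest, median, highest). 2 Het libraries lay below the WT range and the other 3 inside it. The log2 fold change was -0.23 (SE 0.12, 95% interval -0.49 to 0.02, adjusted p = 0.753, edgeR). The other Sec24 genes had positive values, 0.11 for Sec24b, 0.16 for Sec24c and 0.14 for Sec24d, none of them called.

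The GTPase genes Sar1a and Sar1b had log2 fold changes of 0.16 and 0.02, and the inner coat genes Sec23a and Sec23b 0.11 and 0.16. Sec16a, which organises ER exit sites, had 0.04, and Mia3, which encodes the TANGO1 receptor for bulky cargo such as collagen, had 0.07. Per length, Sar1b and Sec13 led the COPII genes, with 174 ± 32.4 in Het and 172 ± 21.1 in WT for Sar1b, and 176 ± 16.6 in Het and 149 ± 19.9 in WT for Sec13. Sar1a had 98.2 ± 6.56 in Het and 88.1 ± 9.64 in WT. Sec31a had 50.5 ± 1.42 in Het and 45.6 ± 6.23 in WT, against which the inner coat genes Sec23b (50.1 ± 8.76 in Het, 44.7 ± 8.84 in WT) and Sec23a (37.8 ± 9.79 in Het, 35.2 ± 8.41 in WT) were not far apart. Mia3 had 27.6 ± 2.44 in Het and 26.3 ± 2.34 in WT, and Sec16a 3.73 ± 0.677 in Het and 3.64 ± 0.523 in WT.

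The 4 Sec24 genes formed a high and a low pair. Per length, Sec24d had 21.6 ± 1.66 in Het and 19.6 ± 3.41 in WT, and Sec24c had 18.6 ± 2.36 in Het and 16.7 ± 2.97 in WT. Sec24a had 4.35 ± 0.602 in Het and 5.11 ± 0.828 in WT, and Sec24b 2.27 ± 0.375 in Het and 2.10 ± 0.458 in WT. The Sec24c and Sec24d levels overlapped between themselves, and both stood above Sec24a and Sec24b in every library.

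COPI vesicles form when Arf GTPases recruit the coatomer to Golgi membranes. Copa, the alpha subunit, had the highest log2 fold change of the 42. It had 237, 212, 213, 255 and 249 CPM in Het libraries, against 147 CPM at the lowest, 194 at the median and 238 at the highest in WT libraries. All 5 Het libraries were above the WT median and 2 above the WT range. The log2 fold change was 0.25 (SE 0.13, 95% interval -0.01 to 0.52, unadjusted p = 0.060, adjusted p = 0.741, edgeR). Copa overlaps Ncstn on the opposite strand over 2.07% of its exons, and the library kit did not keep the strand.

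Copg1, a gamma subunit, had 202, 162, 159, 190 and 185 CPM in Het libraries and 125, 160 and 198 CPM in WT libraries (lowest, median, highest). 1 Het library was above the WT range, and the log2 fold change was 0.18 (SE 0.12, adjusted p = 0.797, edgeR). The remaining coatomer genes had log2 fold changes of 0.07 for Copb1 (beta), 0.18 for Copb2 (beta prime), 0.13 for Cope (epsilon), 0.04 for Copz1 (zeta) and 0.16 for Arcn1 (delta). Arf1 had 0.16, and Arf4 was the one COPI gene with a negative value, -0.06.

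The 7 coatomer genes encode subunits of 1 assembly, and their levels per length ran between 41.3 and 161 in Het and between 38.0 and 148 in WT. Cope was highest at 161 ± 12.6 in Het and 148 ± 15.6 in WT. The next, Copz1 and Copb2, had 60.9 ± 4.76 and 57.5 ± 7.90 in Het and 59.4 ± 9.20 and 50.7 ± 8.69 in WT. Copa, Copg1, Arcn1 and Copb1 lay close together, with Het means of 50.4 ± 4.35, 43.3 ± 4.42, 42.5 ± 4.6 and 41.3 ± 7.17 and WT means of 42.3 ± 7.95, 38.3 ± 6.43, 38.0 ± 7.32 and 39.4 ± 5.55. The WT ranges of these 4 overlapped. Of the GTPases, Arf4 had 167 ± 15.7 in Het and 175 ± 13.8 in WT, and Arf1 had 108 ± 9.97 in Het and 96.5 ± 13.8 in WT.

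The KDEL receptors bind escaped ER chaperones in the Golgi and return them in COPI vesicles. Kdelr2 was the most abundant of the 42 genes per transcript length in both genotypes, and in WT libraries also with all exons as the length, at the 99.8th percentile of all genes tested in WT libraries. Per length it had 749 ± 184 in Het and 906 ± 232 in WT, while the next gene by this length, Tmed9, had 182 ± 9.31 in Het and 176 ± 12.6 in WT. Kdelr2 alone held 18.9% ± 4.33 of the counts of the 42 genes in Het and 23.0% ± 5.83 in WT.

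In Het libraries Kdelr2 had 1066, 1925, 1337, 1140 and 1379 CPM. In WT libraries it had 1084 CPM at the lowest, 1660 at the median and 2337 at the highest. 4 of 5 Het libraries lay below the WT median and 1 above it, and only the lowest Het library was outside the WT range. Its log2 fold change was the most negative of the list at -0.27 (SE 0.19, 95% interval -0.66 to 0.12, adjusted p = 0.799, edgeR). The interval allows a Het level between 0.631 and 1.08 times that of WT.

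Kdelr3 had 77.1, 91.4, 84.2, 87.0 and 71.4 CPM in Het libraries and 64.8, 73.7 and 91.2 CPM in WT libraries (lowest, median, highest). 4 of 5 Het libraries were above the WT median and 1 just above the WT range, and the log2 fold change was 0.13 (SE 0.10, adjusted p = 0.830, edgeR). Kdelr1 had a value of -0.11 (SE 0.14). Per length Kdelr3 had 58.3 ± 5.64 in Het and 53.2 ± 6.57 in WT, and Kdelr1 27.4 ± 4.69 in Het and 29.5 ± 5.76 in WT, so Kdelr2 exceeded both of its paralogs in every library.

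The other receptors take cargo forward or sort it. Surf4, a receptor for soluble secreted proteins whose described cargo includes amelogenin, had a log2 fold change of 0.06 and 82.7 ± 5.47 CPM per kilobase in Het and 79.5 ± 10.4 in WT. Lman1 and Mcfd2, which form a receptor complex for certain glycoproteins, had 0.08 and 0.05. On the same per-length scale Lman1 stood at 8.68 ± 0.483 in Het and 8.23 ± 1.09 in WT, below its partner Mcfd2 at 17.8 ± 2.71 in Het and 17.3 ± 2.57 in WT. Lman2, a related lectin, had a log2 fold change of -0.05, with 18.1 ± 1.92 per length in Het and 18.7 ± 1.90 in WT.

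The p24 family members Tmed2, Tmed9 and Tmed10, which cycle between ER and Golgi and help load cargo, had log2 fold changes of 0.12, 0.06 and 0.09. Tmed10 had 71.3 ± 3.34 per length in Het and 66.9 ± 4.07 in WT, and Tmed2 11.4 ± 0.857 in Het and 10.5 ± 1.03 in WT. The Tmed2 level is uncertain, since a pseudogene identical to it over 604 bases, Gm10698, held counts equal to 14% of its own. Tmed10 ranked 28 of 42 in place of 15 when all exons were used as its length.

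Creb3l1 and Creb3l2 encode transcription factors that are held in the ER membrane and released by proteolysis, and they are known to switch on genes of this pathway, such as Sec23a by Creb3l2 in mouse cartilage. Creb3l1 had 6.64, 9.99, 10.6, 4.68 and 5.76 CPM in Het libraries and 4.23, 7.58 and 8.98 CPM in WT libraries (lowest, median, highest). 2 Het libraries were above the WT range and the other 3 below the WT median (log2 fold change 0.08, SE 0.22, adjusted p = 0.963, edgeR). Creb3l2 had 157, 217, 194, 158 and 193 CPM in Het libraries and 144, 173 and 256 CPM in WT libraries (log2 fold change 0.01, SE 0.13, adjusted p = 0.988, edgeR). All 5 Het libraries lay within the WT range of Creb3l2. Per length Creb3l2 had 25.9 ± 3.66 in Het and 25.7 ± 5.00 in WT, against 2.89 ± 1.00 in Het and 2.75 ± 0.705 in WT for Creb3l1.

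The balance between paralogs or partners was compared within each library, where library size cancels, as the log2 ratio of their levels per length. The ratio differed between Het and WT in 0 of 8 pairs, by exact two-sided permutation tests over 1287 splits with Benjamini-Hochberg adjustment over the 8 pairs, and the smallest p such a test can give is 0.000777. The lowest p belonged to Kdelr3 over Kdelr2. That log2 ratio was -3.41, -4.02, -3.61, -3.34 and -3.89 in Het libraries, against a range of -4.62 to -3.62 in WT libraries. The means were -3.66 ± 0.30 in Het and -4.05 ± 0.38 in WT, a difference of 0.40 (exact p = 0.0754, adjusted p = 0.344). 3 Het libraries had a higher ratio than any WT library.

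Arf1 over Arf4 had a log2 ratio of -0.63 ± 0.23 in Het and -0.86 ± 0.21 in WT, a difference of 0.23 (exact p = 0.0917, adjusted p = 0.344). Sec24a over Sec24b had 0.94 ± 0.39 in Het and 1.29 ± 0.37 in WT, a difference of -0.35 (exact p = 0.129, adjusted p = 0.344). Sar1a over Sar1b differed by 0.16 (exact p = 0.233, adjusted p = 0.466). The other 4 pairs were Sec23a over Sec23b, Sec24c over Sec24d, Lman1 over Mcfd2 and Creb3l1 over Creb3l2, which differed by -0.07, 0.02, 0.04 and 0.03 (exact p of 0.647 to 0.914). The ranges of Het and WT overlapped in all 8 pairs.

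**Figure D3:**
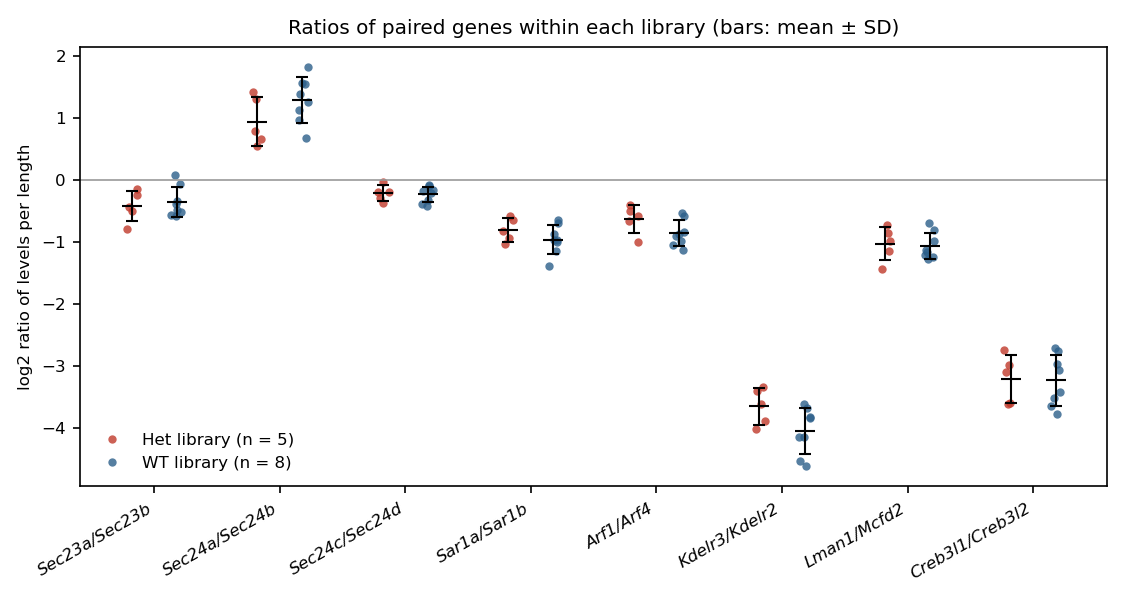
Log2 ratio of the levels per length of 8 gene pairs (y axis) in each library, Het points left of WT points, with the mean and SD as bars. The Kdelr3 over Kdelr2 ratio averages -3.66 in Het and -4.05 in WT, and Het and WT points overlap in all 8 pairs.

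Some of the 42 genes also differed by another label. The table's columns carry a number pair, and the first number, called the library prefix here, takes the values 1, 4 and 5. What it stands for could not be read from the labels. With genotype in the model, 6 of 42 genes differed among prefixes (Sec23a, Sec23b, Sec24b, Copb1, Copg1 and Creb3l1, edgeR adjusted p of 0.0094 to 0.048), against 6.08% of all genes tested. The count rests on single libraries, and the share of all genes moved with it. It was 1 without the Het library 5-5 or the WT library 5-1, where 2.44% and 1.73% of all genes were called. It was 2 without Het 4-2, Het 4-5 or WT 5-3 (2.42%, 2.81% and 2.94% of all genes) and 3 without WT 4-3 (4.24%). It was 12 without WT 1-1 (9.04%). Creb3l1 was called in all 13 fits with 1 library left out.

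For Sec23a, CPM ran between 130 and 174 in the libraries of prefix 1, between 84.0 and 137 in prefix 4 and between 175 and 211 in prefix 5. Copg1 had 154 to 202 CPM in prefix 1, 125 to 162 CPM in prefix 4 and 185 to 198 CPM in prefix 5. Copb1 had 112 to 145, 111 to 126 and 144 to 172 CPM in the same order of prefixes, and Sec23b 132 to 155, 84.4 to 127 and 122 to 161 CPM. In these 4 coat genes the libraries of prefix 4 were low, and apart from Sec23b the prefix 5 libraries lay above all those of prefix 4. Creb3l1 and Sec24b ran the other way, with Creb3l1 at 6.38 to 8.98 CPM in prefix 1, 7.80 to 10.6 CPM in prefix 4 and 4.23 to 5.76 CPM in prefix 5. Sec24b had 7.20 to 10.3 CPM in prefix 5 and 9.97 to 13.7 CPM in prefix 4.

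The fitted log2 difference of prefix 5 minus prefix 4 was 0.69 for Sec23a, 0.47 for Sec23b, 0.42 for Copb1 and 0.40 for Copg1, and it was -0.92 for Creb3l1 and -0.51 for Sec24b. It was positive in 9 of 9 COPI genes with a median of 0.38, and in 8 of 12 COPII genes with a median of 0.22. No share over all genes is given for this sign, and the coat genes vary together, so these counts are a description. Over the same libraries the 7 enamel genes summed to 306141 to 343029 CPM in prefix 5 and 200338 to 284858 CPM in prefix 4. The odontoblast and pulp markers summed to 2610 to 3229 CPM in prefix 5 and 4558 to 7976 CPM in prefix 4. That sum is mostly Col1a1 and Col1a2, so it largely follows these collagen genes. Y-linked genes were detected in 3 of 5 Het and 3 of 8 WT libraries, and in 4 of 4 libraries of prefix 5 and in 1 of 5 of prefix 4. The part of tissue make-up and of sex in the prefix differences was not tested.

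**Figure D4:**
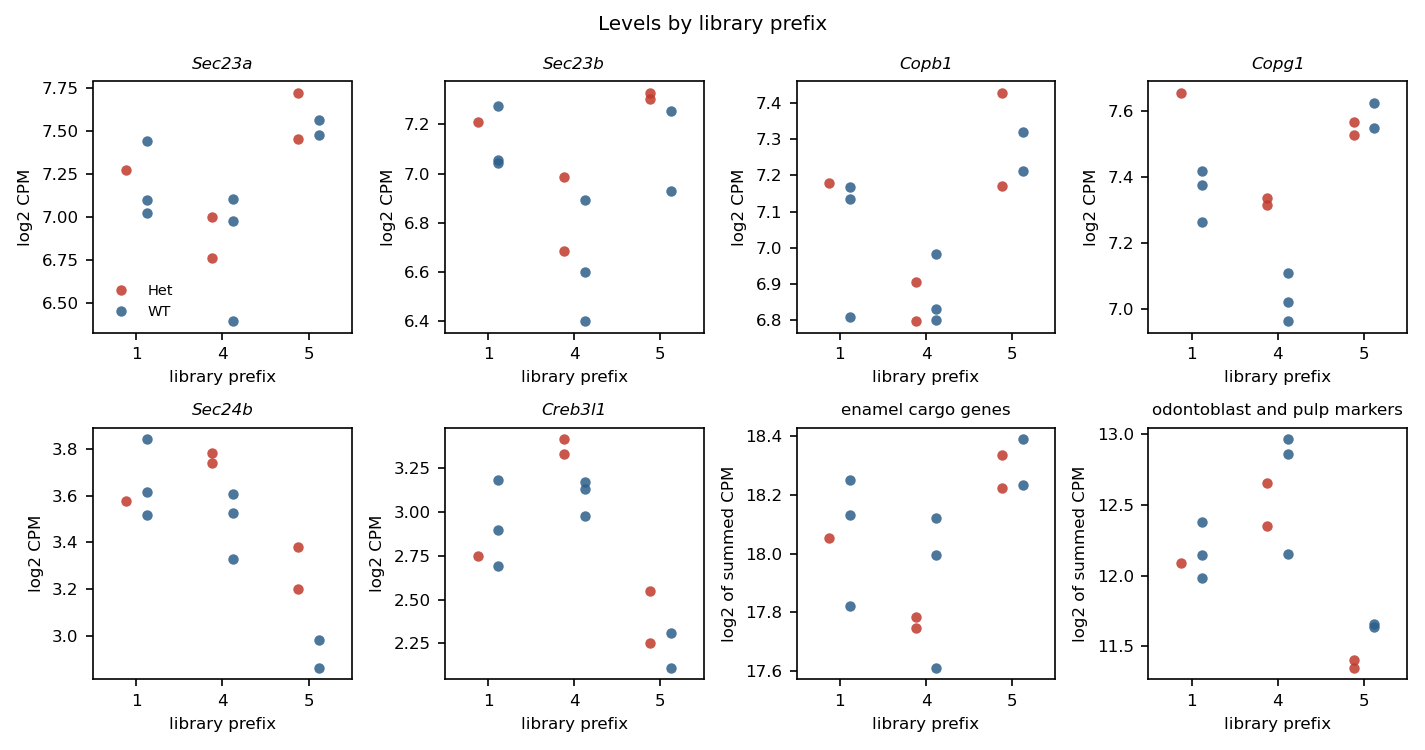
Log2 CPM of 6 genes, and log2 of the summed CPM of the enamel genes and of the odontoblast and pulp markers (y axes), by library prefix (x axis), Het points left of WT points. Sec23a, Sec23b, Copb1 and Copg1 are low in prefix 4 with the enamel genes. Creb3l1 and Sec24b are low in prefix 5 with the odontoblast and pulp markers, whose sum is mostly Col1a1 and Col1a2.

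The genotype difference was also taken within each prefix. The median log2 difference of the 42 genes (Het minus WT) was 0.09 in prefix 1 (1 Het and 3 WT libraries), 0.11 in prefix 4 (2 Het and 3 WT) and 0.04 in prefix 5 (2 Het and 2 WT), with 32, 31 and 28 genes positive. The direction was the same in all 3 prefixes for 22 genes, 19 of them positive, among these Sec13 (0.22, 0.27 and 0.15), Copa (0.17, 0.41 and 0.17) and Kdelr3 (0.12, 0.20 and 0.03). Kdelr2, Arf4 and Ssr1 were negative in all 3, with Kdelr2 at -0.47, -0.30 and -0.10. No share over all genes is given for these directions within prefixes. The 42 genes vary together, so the counts are a description and were not tested. A test of whether the genotype difference itself depended on the prefix called 0 of 42 genes and 0% of all genes tested.

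Of the pair ratios, Sec24a over Sec24b was lower in every Het library than in every WT library of the same prefix. The log2 ratio was 0.65 in the Het library of prefix 1, against 0.67 to 1.13 in WT. In prefix 4 it was 0.79 and 0.54 in Het, against 1.25 to 1.56 in WT, and in prefix 5 1.41 and 1.29 in Het, against 1.54 to 1.82 in WT. The differences of the means were -0.27, -0.73 and -0.33 in prefixes 1, 4 and 5. Averaged over prefixes with weights for their libraries, the difference was -0.48, and permuting the genotypes within prefixes gave an exact two-sided p of 0.00417, the smallest that 240 splits can give (adjusted p = 0.0333 over the 8 pairs). This test was added after the data were seen, and the other 7 pairs had adjusted p of 0.178 to 0.704 by it. With 1 library left out the difference stayed between -0.55 and -0.40 in 13 of 13 fits, with adjusted p of 0.0444 to 0.133. The pair passed in 2 of these fits, and in 10 of them the number of splits is too small for a single pair to pass. Without prefixes in the test, the pair did not pass, as given above, and leaving out prefix 4 brought that difference to -0.11 (adjusted p = 0.964, exact permutation).

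**Figure D5:**
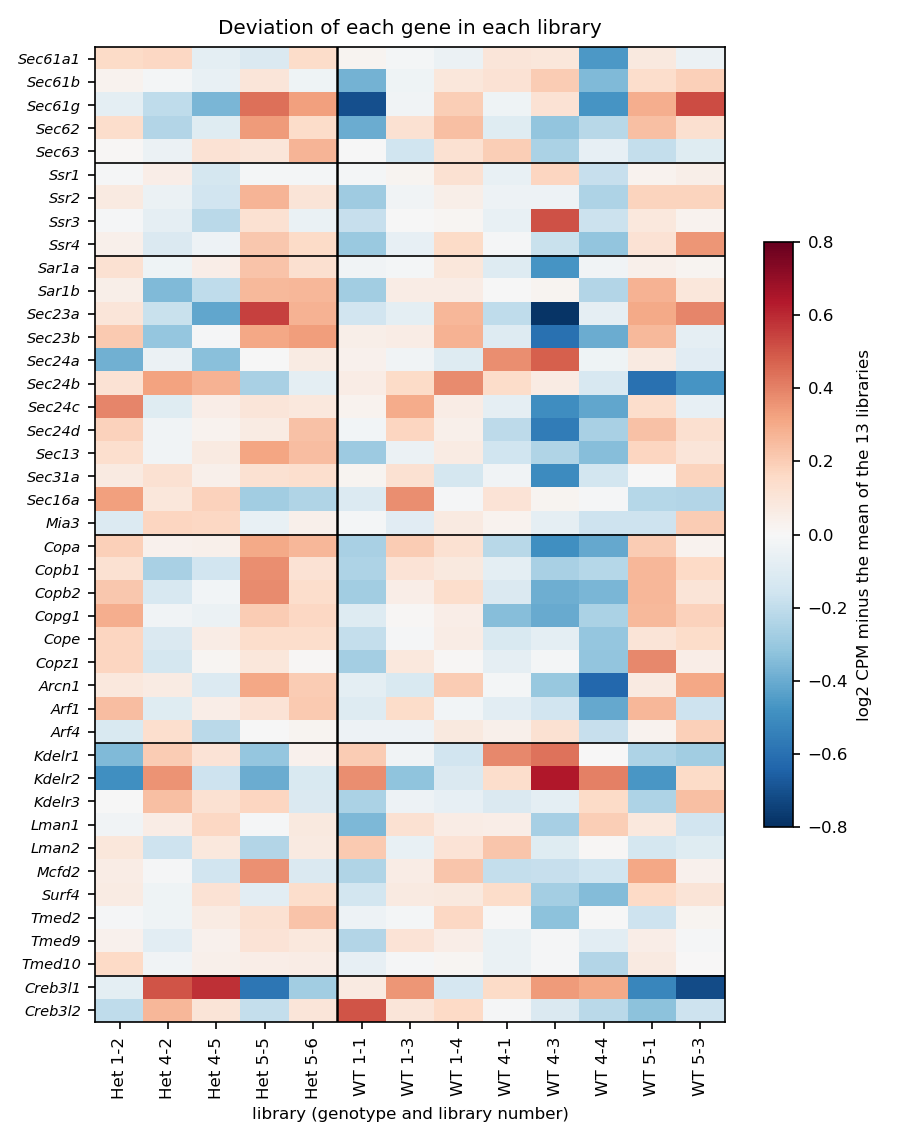
Log2 CPM minus the mean of all 13 libraries for each of the 42 genes (rows, by role) in each library (columns, Het left of WT, numbered by prefix and library). Coat genes are mostly low in the WT libraries 4-3 and 4-4, where Kdelr2 is high, and Creb3l1 is high in prefix 4 and low in prefix 5.

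Promoter sequence was searched because the ER stress and Golgi stress factors that regulate such genes bind short elements close to the start site. RefSeq windows on GRCm38.p6, from 250 bases before to 50 bases after the start site, were found for 35 of 42 genes. A gene can have more than 1 window, as Arf1 does, and was counted once if any of its windows held a match. The Golgi stress element ACGTGGC (GASE), searched on both strands, was present in 14 of 35 genes (40%). It was present in 2.95% of all 27025 genes with a window and 4.39% of the 11327 tested genes with one. The unfolded protein response element TGACGTGG (UPRE), which can overlap GASE by 6 letters, was present in 6 of 35 (17.1%), against 0.714% of all and 1.03% of the tested genes. Both stood in the windows of Arf1, Kdelr3, Sec23a and Sec24d. The median G+C content was 59% in the windows of the 35 genes and 60.3% in those of the tested genes. Among windows at or above the 59% median, GASE was found in 11 of 18 of the trafficking genes and 5.03% of the tested genes. The ER stress elements were ERSE (CCAAT and CCACG with any 9 bases between them) and ERSE-II (ATTGG and CCACG with any 1 base between them). Their CCACG is also part of GASE and UPRE read on the other strand. ERSE and ERSE-II were found in 0 of 35 genes, against 0.137% and 0.0444% of all genes. No set test was run on these shares, a match is not a binding site, and the letters do not bear on the genotype comparison.

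Stretches are shown for genes of each coat and of the translocon and for a KDEL receptor, whose values are given above, 5′ to 3′ on the gene's own strand, with the matched letters in capitals. Sec23a, Copg1 and Copb1 are genes that differed among prefixes, and their elements begin 6 bases after the RefSeq start site in Sec23a, 3 bases after it in Copg1 and at position -28 relative to it in Copb1 (Sec23a chr12:59011993-59012021, minus strand; Copg1 chr6:87887933-87887959, plus strand; Copb1 chr7:114254691-114254718, minus strand). In Sec23a the capitals hold UPRE and GASE together. Copg1 has GASE alone, and Copb1 has UPRE alone, on the opposite strand. No match was found for Sec23b, Sec24b and Creb3l1, which also differed among prefixes. Any of the 4 elements searched was found in 16 of 35 genes (45.7%). A tie between the elements and the prefix differences was not tested.
Sec23a: tcctccccttTGACGTGGCagaggcggca
Copg1: gctcagggcgACGTGGCgggcgggagt
Copb1: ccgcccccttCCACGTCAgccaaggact
Kdelr3, Sar1a and Sec63 have the element before the start site, on the opposite strand, so that it reads GCCACGT on the gene's own strand (Kdelr3 chr15:79516347-79516407, plus strand; Sar1a chr10:61680097-61680163, plus strand; Sec63 chr10:42761443-42761495, plus strand). In Kdelr3 it is joined to UPRE as GCCACGTCA.
Kdelr3: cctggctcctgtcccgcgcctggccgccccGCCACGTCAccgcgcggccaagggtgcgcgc
Sar1a: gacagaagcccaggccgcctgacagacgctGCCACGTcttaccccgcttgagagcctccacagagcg
Sec63: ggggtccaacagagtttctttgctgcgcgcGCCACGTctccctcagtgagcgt

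Other genes of the same route were read from separate lists. Of 92 tested, 0 passed the adjusted threshold, against 0.0857% of all genes, and 6 had an unadjusted p under 0.05, against 6.9% of all genes. A positive log2 fold change was found for 70 and a negative one for 22, against 49.1% positive among all genes, and the median was 0.08. The lists were the signal recognition particle and its receptor (7 of 7 positive), signal peptidase and translocon partners (5 of 10), oligosaccharyltransferase (9 of 12), other COPII and exit site genes (7 of 9), other COPI and Arf regulators (7 of 10), other receptors and p24 proteins (11 of 14), tethers and SNAREs (19 of 25) and the other CREB3 genes with their proteases (5 of 5).

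The lowest p of these lists belonged to Stx18, a SNARE for vesicles that return to the ER. It averaged 5.98 ± 0.19 log2 CPM in Het and 6.37 ± 0.23 in WT, a log2 fold change of -0.40 (SE 0.12, unadjusted p = 0.0038, adjusted p = 0.388, edgeR). Mia2, a partner of Mia3 at exit sites, had 0.25 (SE 0.10, adjusted p = 0.658, edgeR), and Mbtps1, the site-1 protease that cuts CREB3-type factors, had 0.27 (SE 0.12, adjusted p = 0.685, edgeR). Tmed8, of the p24 family, had 0.38, Sec11c, a signal peptidase subunit, 0.33, and Magt1, an oligosaccharyltransferase subunit, -0.21, with adjusted p of 0.668 to 0.714 (edgeR). Srp9, of the signal recognition particle, had 0.19, and Arfgap2, which acts on Arf in COPI vesicles, 0.16.

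The cargo genes were read in the same fit. Of the 7 enamel genes 0 passed the adjusted threshold. Amelx, Enam and Mmp20 had log2 fold changes of 0.16, 0.11 and 0.22 and Ambn -0.02, while Klk4, Amtn and Odam, which mark the maturation stage, had -0.30, -0.45 and -0.29. Amtn, an enamel surface protein gene, had the lowest p of the 7, with 9.55 ± 0.29 log2 CPM in Het and 10.01 ± 0.28 in WT (SE 0.15, unadjusted p = 0.0083, adjusted p = 0.502, edgeR).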

How the data were processed

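Libraries were unstranded Nextera XT, pooled and sequenced in 2 runs of a NextSeq 500 (single reads of 75 bases), per the labels' protocols. Alignment with STAR 2.5.2a and the build GRCm38 are named in the submitters' processing notes, as are DESeq2, edgeR and limma, without their roles. For the counting tool and annotation, no name was given in the sources used here. All tests started from raw counts per gene, which the authors deposited for 13 libraries. A deposited filtered count table served as an alternative filter, and a deposited normalized table was not used. Columns name the genotype but no replicate number, and were assigned to genotypes only. 24 features that are not genes had at most 0.000177% of the counts in any library and were left out. The lowest chi-square per gene over 78 library pairs was 8.03, so no library was a repeat of another.

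The 42 genes, the other lists and the pairs were chosen with earlier results of these data known. Genes were filtered with filterByExpr (count minimum 10) and tested by quasi-likelihood (edgeR 4.0.16, R 4.3.3; glmQLFit with robust=TRUE, glmQLFTest, TMM) at an adjusted p of 0.05. SE came from the F statistic. CPM uses TMM-scaled library sizes, and log2 CPM a prior count of 2. Lengths, overlaps and copies (at least 97% identity over 200 bases) came from GENCODE M21, and promoter windows from RefSeq (GRCm38.p6). Within the 42, the median biological coefficient of variation was 0.152, against 0.204 for all genes tested. Depth gave each of the 42 genes 44 to 48705 counts per library. The 2 genes of lowest p in each role are given with CPM values and an adjusted p. Genes of the pairs are given with at least a log2 fold change and a level, not all with an SE or p. In each other list of the route the gene of lowest p is named, not always with its SE or p. Copb1, Sec23b and the other enamel genes were chosen after their values were seen. The alternatives used upper-quartile or RLE factors, other filters, DESeq2 1.42.0, limma-voom (limma 3.58.1), covariates, and libraries left out. The comparison of motif shares among windows at or above the 59% median G+C content was chosen after the data were seen. So was the test of pair ratios within library prefixes.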

Additional observations from a re-analysis of the deposited data

Results flagged for a closer look

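In 4 of 100 groups of library values tested for a library that stands apart, 1 WT library lay far from the other 7, where chance gives about 1 in 20 groups. Sec61a1 had its lowest WT value, 6.76 log2 CPM, in the library 4-4, against 7.17 to 7.32 in the others. Tmed10 was also lowest there, at 6.43 log2 CPM against 6.60 to 6.74. In the WT library 4-3, Ssr3 was highest at 8.54 log2 CPM against 7.85 to 8.12, and Sar1a lowest at 7.43 log2 CPM against 7.80 to 7.99. Without WT 4-3 or WT 4-4, 0 of 42 genes passed the genotype test, as with all libraries.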

How the results depend on the processing

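Het against WT, 0 of the 42 genes passed the adjusted threshold under any of the 27 alternatives, and the lowest adjusted p among them was 0.392, with library prefix as a term, where 5 of 42 had an unadjusted p under 0.05, against 9.82% of all genes. The median log2 fold change of the 42 genes stayed between 0.06 and 0.11, with 30 to 35 genes positive. Signs of uncalled genes changed in 0 to 8 genes per alternative, the most with the libraries of prefix 4 left out. The number of all genes called, 14, moved to 27 without a filter on counts, 25 with a floor of 1 CPM in 5 libraries, 74 by DESeq2, 27 by limma-voom, 30 with prefix as a term, 0, 1 and 2 without the libraries of prefix 1, 4 and 5, and 2 without the libraries with most muscle markers (Het 1-2 and WT 1-4). Leaving out 1 library at a time gave 6 to 22. RLE and upper-quartile factors gave 14, and the authors' filter, Y-linked genes and bone and odontoblast markers as covariates 15 each. The cause was not tested, except that leaving out libraries leaves fewer of them. The number of the 42 genes that differed among prefixes, 6, ran between 1 and 12 with 1 library left out, and was 5 or 6 under other factors and filters. Without a filter on low counts the 6 were not the same genes, with Kdelr1 and Kdelr2 in place of Copb1 and Copg1. The pair ratios gave 0 calls under the other 18 alternatives with a test. With differences taken within prefixes, an alternative added after the data were seen, the count moved to 1, Sec24a over Sec24b at -0.48 (exact permutation, adjusted p = 0.0333, and -0.55 to -0.40 with 1 library left out, adjusted p = 0.0444 to 0.133), while permuting the overall difference within prefixes gave p = 0.0958 (adjusted p = 0.278). No paired analysis was possible because the columns carry no replicate number from the labels. With 5 and 8 libraries, differences smaller than the intervals given were not detectable, and the group sizes within a prefix were 1 to 3.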
